A study of Mus musculus with 33 samples.

Results

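Myc and 7 genes that work with or against it in the MYC-MAX-MLX network were followed through regeneration of the mouse liver. The members are Myc, Mycn, Max, Mlx, Mxd1, Mxi1, Mxd4 and Mnt, taken by symbol from probe sets that carry exactly 1 gene symbol. Their 18 probe sets are among 34945 such probe sets, and the 8 genes are among 18193 genes on the array. Where a gene had several probe sets, the brightest on average over the 33 arrays gave its value, and all 8 members passed the filter on low values that kept 13642 genes for testing. Mouse livers were collected after surgical removal of 70% of the organ. Within the first day (d) they were taken at 0 d, 0.25 d, 0.5 d, 0.75 d and 1 d, and later at 1.5 d, 2 d, 3 d, 4 d, 7 d and 14 d. Each time had 3 livers, described as biological replicates, and 33 arrays were made in all. All animals, those at 0 d included, are labelled as having had the operation. Strain, sex and age of the mice, a sham operation, and whether the 0 d liver was the piece removed at surgery are not given in the sources used here. Values are log2 intensities of Affymetrix arrays, on which a difference of 1 is a doubling. Levels of different genes are not compared, since each probe set has its own brightness.

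MYC is a basic helix-loop-helix leucine zipper transcription factor that binds DNA as a heterodimer with MAX and drives genes of cell growth, ribosome production and metabolism. MXD1, MXI1, MXD4 and MNT compete for MAX, occupy the same E-box motif and recruit the SIN3 and histone deacetylase corepressor, while MLX pairs with the glucose-sensing factors MLXIP and MLXIPL and with some MXD proteins and MNT. In liver, Myc has long been known as an early response gene after partial hepatectomy, and the balance of MYC with the MXD proteins is tied to the passage of cells between rest and division.

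The E-box that these dimers read is CACGTG, which is the same on both strands. It was searched in RefSeq promoter windows (GRCm38.p6) from 250 bases before to 50 bases after a start site, with no other motif searched. Of the 8 members 7 had such a window, and 4 of those 7, Max, Mlx, Mxd4 and Mnt, held the motif. It was found in 7.15% of the 32851 windows of all genes, and 8.09% of the 27025 genes with a window held it in some window. The 4 windows are shown because Max, Mlx and Mxd4 are among the members whose RNA changed and Mnt is one for which no change was called. The capitals mark the motif. The Max window is chr12:76962199-76962498 on the minus strand, with the motif starting at position -3 from the start site. The Mlx window is chr11:101087040-101087339 on the plus strand, with the motif at position -40. The Mxd4 window is chr5:34187661-34187960 on the minus strand, with the motif at position -219. The Mnt window is chr11:74830674-74830973 on the plus strand, with the motif at position -123.
Max: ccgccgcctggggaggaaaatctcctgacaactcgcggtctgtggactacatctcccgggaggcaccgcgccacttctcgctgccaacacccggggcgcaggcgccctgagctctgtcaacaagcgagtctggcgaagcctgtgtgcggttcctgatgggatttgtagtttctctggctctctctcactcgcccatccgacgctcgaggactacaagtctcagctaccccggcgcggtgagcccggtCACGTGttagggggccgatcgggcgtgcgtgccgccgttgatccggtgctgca
Mlx: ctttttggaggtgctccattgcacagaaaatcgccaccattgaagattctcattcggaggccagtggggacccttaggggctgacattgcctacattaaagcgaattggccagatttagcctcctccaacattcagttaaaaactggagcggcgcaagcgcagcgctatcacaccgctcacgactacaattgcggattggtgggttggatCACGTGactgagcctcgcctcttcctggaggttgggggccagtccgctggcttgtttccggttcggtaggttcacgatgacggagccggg
Mxd4: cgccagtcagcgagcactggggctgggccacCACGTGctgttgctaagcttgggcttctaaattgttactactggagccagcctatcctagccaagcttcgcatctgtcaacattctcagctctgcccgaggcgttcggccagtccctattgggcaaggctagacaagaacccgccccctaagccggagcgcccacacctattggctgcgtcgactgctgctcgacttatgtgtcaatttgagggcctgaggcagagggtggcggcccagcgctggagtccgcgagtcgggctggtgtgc
Mnt: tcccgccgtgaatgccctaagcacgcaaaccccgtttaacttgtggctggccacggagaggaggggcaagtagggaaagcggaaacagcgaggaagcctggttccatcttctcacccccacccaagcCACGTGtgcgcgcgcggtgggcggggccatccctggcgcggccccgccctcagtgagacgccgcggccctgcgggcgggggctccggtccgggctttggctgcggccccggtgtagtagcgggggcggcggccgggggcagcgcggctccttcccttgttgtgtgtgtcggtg
The windows of Mxd1 and Mycn and the 3 windows of Mxi1 did not contain these letters. A match is a description of the sequence and not a measured binding site.

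Array medians lay between 5.32 and 5.38, and 12468 to 12905 genes per array read 5 or more. Alb (albumin), the defining hepatocyte transcript, was 14.60 to 14.80 on every array. One field of each sample record mentions fat tissue, whereas the tissue and source fields name liver. The adipocyte hormone gene Adipoq was below 5 on all but 4 arrays: 0 d replicate 3, 0.25 d replicate 2, 2 d replicate 3 and 7 d replicate 3. The mean of the 5 measured adipocyte markers was 4.69 to 5.55 at 0 d and 6.36 to 6.99 at 0.25 d, and that of 7 neutrophil and monocyte markers was 4.99 to 5.22 and 5.96 to 6.15. Lep of adipocytes and Mpo, a gene of neutrophil precursors, were below 5 on all arrays, while the neutrophil genes S100a8 and S100a9 reached 8.36 and 8.43. At 0.25 d, 5 of the 6 neutrophil and monocyte markers tested and 2 of the 4 adipocyte markers tested (Cidec and Fabp4) were called higher. Of the 8 markers of Kupffer cells and macrophages, 4 were lower and 1 higher at 0.5 d, with a mean of 7.02 to 7.61 against 7.56 to 8.06 at 0 d, and 5 were higher at 3 d (8.71 to 9.25). Alas2, the only erythroid marker that passed the filter, was called lower at each time from 0.25 to 3 d, by -1.18 to -2.19, while the haemoglobin gene Hba-a1 was below 5 on all arrays. The part of these markers in the members' values was not tested, and in whole liver fewer cells of a type and less RNA per cell cannot be told apart. The sample records also fall in 2 runs of numbers, with 0.25, 0.5, 0.75 and 1.5 d in a run of their own, so run and time cannot be told apart for these 4 times against 0 d.

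Over the whole course 5 of the 8 members varied by limma's moderated F-test with Benjamini-Hochberg adjustment, against 69.4% of all genes tested. Mxd4 (adjusted p = 3.19e-07), Mxi1 (6.60e-06), Max (4.43e-05) and Mlx (0.000557) varied most clearly, and Mycn stood near the threshold (0.0419). Myc (0.671), Mnt (0.580) and Mxd1 (0.514) did not pass. Against 0 d, 19 of the 80 member-by-time differences were called at an adjusted p under 0.05, 6 higher and 13 lower, beside 18.8% of all gene-by-time differences. They belong to Max, Mlx, Mxd4 and Mxi1. The same 3 arrays at 0 d enter all 10 comparisons, so the members' values at different times are not independent of each other.

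At 0.25 d 1 member was called higher and 2 lower, where 45.9% of all genes were called, 17.2% higher and 28.8% lower. At 0.5 d it was 2 higher and 1 lower (35.2% of genes, 15.8% higher and 19.4% lower), and at 0.75 d 1 higher and 2 lower (22.5%, 9.84% and 12.7%). The split stayed at 1 higher and 2 lower at 1 d (17.7%, 8.16% and 9.55%) and 1.5 d (20%, 8.33% and 11.7%). At 2 d 2 members were lower (22.5%, 11% and 11.6%), at 3 d 1 (21.2%, 10.2% and 10.9%) and at 4 d 1 (2.86%, 1.88% and 0.975%). Livers of a time that did not overlap with those of 0 d were found in 4 members at 0.25 d, beside 49% of all genes, 3 at 0.5 d (40.9%), 4 at 0.75 d (40%) and 4 at 1 d (36.3%). Later there were 3 at 1.5 d (38.9%), 2 at 2 d (34.3%), 3 at 3 d (39.7%), 1 at 4 d (22%), 1 at 7 d (16.7%) and 0 at 14 d (20.7%). The members' shares are near those of all genes at most times. No member was called at 7 d or 14 d, where limma called 0.183% (0.125% higher and 0.0586% lower) and 0.0147% of genes. Between neighbouring times 5 of 80 member steps were called, beside 8.1% of all gene steps: 3 of them are the first step from 0 d and the other 2 are of Mxd4. In the plot of values by array, the antagonists Mxi1 and Mxd4 dip early while Max and Mlx stand above 0 d.

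**Figure D1:**
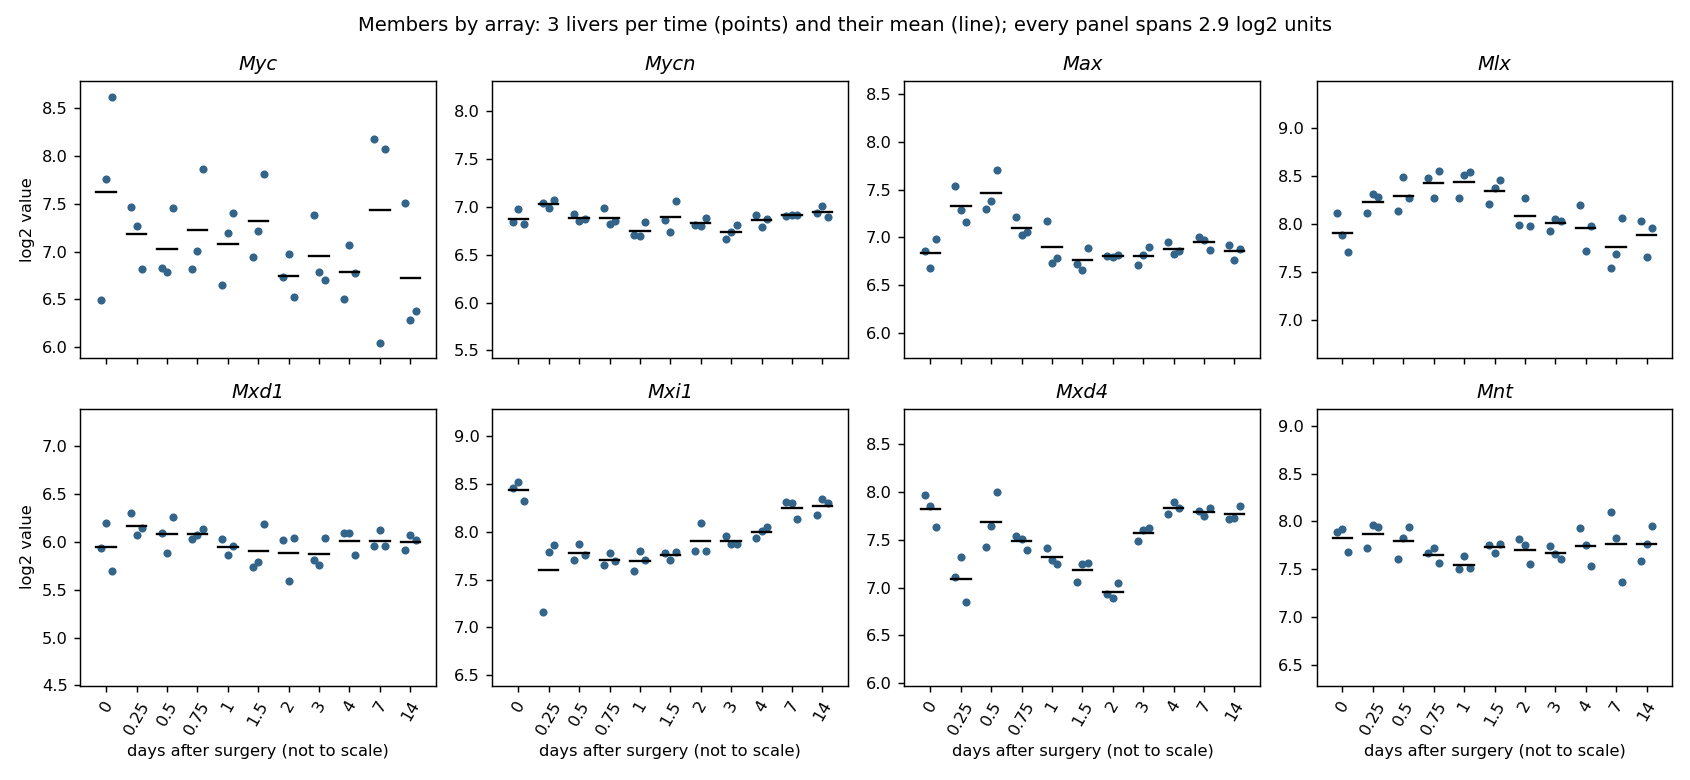
Log2 value (vertical axis) of each member on each of 33 arrays by days after surgery (horizontal axis, not to scale); points are livers and lines are the mean of 3. Myc is scattered from 6.05 to 8.62 and overlaps with 0 d at every time, Mxi1 is low from 0.25 to 4 d, Mxd4 is lowest at 0.25 d and 2 d and back in the 0 d range from 4 d, and Max is high at 0.25 and 0.5 d.

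Myc itself, read by its only probe set with a single symbol (1424942_a_at), had no called difference from 0 d at any time. Its values at 0 d were 6.50, 7.76 and 8.62, a span that holds 27 of the other 30 arrays. At 0.25 d they were 7.46, 7.27 and 6.81, and at 0.5 d 6.83, 6.79 and 7.45. At 0.75 d the livers read 6.82, 7.01 and 7.87. The 3 early times thus lie inside the range of the 0 d livers. No liver was taken between 0 d and 0.25 d, so a change of Myc confined to that interval would not be seen. Values were 6.65, 7.19 and 7.40 at 1 d, 6.94, 7.21 and 7.81 at 1.5 d and 6.74, 6.98 and 6.53 at 2 d. They were 7.38, 6.79 and 6.71 at 3 d and 6.51, 7.07 and 6.78 at 4 d. At 7 d the livers split into 8.17, 6.05 and 8.07, and at 14 d they read 7.51, 6.28 and 6.38. The highest array was at 0 d and the lowest at 7 d, and every time overlapped with 0 d.

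All 10 differences of Myc from 0 d were below 0, from -0.20 at 7 d to -0.90 at 14 d, each with a standard error of 0.47. At 0.25 d the difference was -0.45 with a 95% interval of -1.41 to 0.52 (limma, adjusted p = 0.450). At 2 d it was -0.88 with an interval of -1.85 to 0.09 (adjusted p = 0.192). At 4 times the sign rests on 1 liver of 0 d. Without 0 d replicate 3, the array with the highest Myc, the differences at 0.25, 0.75, 1.5 and 7 d were 0.05, 0.10, 0.19 and 0.30, none of them called. Without 0 d replicate 1, the lowest at that time, the 2 d value was -1.45 and was called (limma, adjusted p = 0.0357). The spread of Myc between livers of a time, a moderated SD of 0.58, was larger than that of 98.8% of the genes tested, whose median was 0.15. It ranged from 0.22 at 2 d to 1.20 at 7 d.

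The scatter of Myc between livers of 1 time ran alongside that of a few other genes, which were chosen after their values were seen. Over the 33 arrays, after each gene's time mean was taken out, Gadd45g, a stress-response gene of the GADD45 family, followed Myc with a Pearson r of 0.89 (Spearman 0.81). Without the 2 arrays farthest from the Myc median it was 0.85, and over the 27 arrays that are not from 0 d or 7 d it was 0.81. At 0 d Gadd45g was 6.73, 7.99 and 9.75 in livers whose Myc was 6.50, 7.76 and 8.62. At 7 d it was 8.27, 5.47 and 8.79, low in the same liver as Myc. The liver with the highest Myc had the highest Gadd45g at 9 of 11 times, and all livers of a time had the same order in both genes at 3 of 11. The 2 genes did not share a course over time: Gadd45g was 10.95 to 11.36 at 0.25 d, above all livers of 0 d, where Myc was not. Phlda1 followed Myc at 0.79 and Foxq1, a forkhead factor, at 0.76. Without 0 d and 7 d these were 0.61 and 0.48. Egfr, the receptor of epidermal growth factor, ran the other way at -0.76, and at -0.77 without 0 d and 7 d. The correlations are descriptions: the genes were the extremes of a search over all genes tested on the same arrays.

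**Figure D2:**
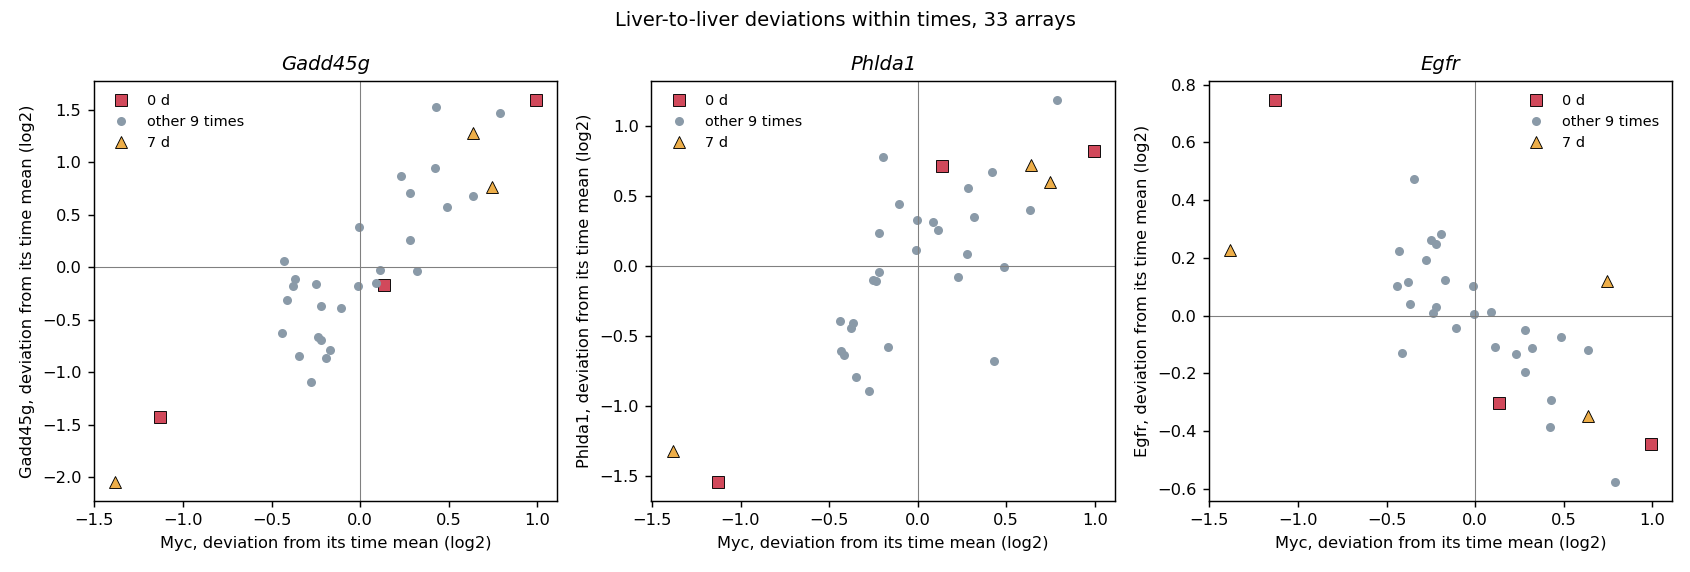
Deviation of Gadd45g, Phlda1 and Egfr from their time means (vertical axes, log2) against that of Myc (horizontal axis, log2), 1 point per array, with the 0 d and 7 d livers marked. Gadd45g and Phlda1 rise with Myc, and Egfr falls, at r of 0.89, 0.79 and -0.76.

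Measures of the arrays and of cell types were also set against the Myc scatter. They were not picked by a search over all genes, so their r cannot be ranked against those above. Within times the r of Myc was 0.42 with the mean of the neutrophil and monocyte markers, 0.37 with the sinusoidal endothelial markers, 0.27 with the Kupffer cell and macrophage markers, and -0.12 with the hepatocyte markers. It was 0.32 with the adipocyte markers, 0.31 with Adipoq alone and 0.29 with the cholangiocyte markers. With each array's correlation with its own time it was -0.36. With the 18S ribosomal signal it was 0.07 and with the actin 3' to 5' difference, a sign of RNA integrity, -0.01. Of the 3 arrays with the highest Myc, 0 d replicate 3 and 7 d replicate 3 are among the 4 with Adipoq of 5 or more, at 5.38 and 7.07. The other 2 of those 4, 0.25 d replicate 2 and 2 d replicate 3, had Adipoq of 5.80 and 5.86 and Myc of 7.27 and 6.53. Whether these markers have a part in the Myc values was not tested.

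Mycn, the MYC paralog better known from embryonic and neural tissue, gave different answers by probe set. The chosen probe set 1425923_at stayed between 6.67 and 7.07 on all arrays. It was 6.85, 6.97 and 6.82 at 0 d and 7.04, 6.99 and 7.07 at 0.25 d, a difference of 0.15 ± 0.07 (SE) that did not pass (limma, adjusted p = 0.0905) although the livers did not overlap. Its moderated SD of 0.09 was smaller than that of nearly all genes (percentile 2.31), and none of its differences from 0 d was called in the main fit. With quantile normalization the 0.25 d difference was 0.32 and was called (limma, adjusted p = 0.00149), as was the step to 0.5 d (-0.26, 0.0196). Without 0 d replicate 2 the 0.25 d difference of 0.20 was called too (adjusted p = 0.0499). The dimmer probe set 1417155_at read 5.25, 5.63 and 6.85 at 0 d, 4.90, 5.13 and 5.10 at 0.25 d and 6.79, 6.57 and 5.29 at 0.5 d. It fell at 0.25 d by 0.86 (adjusted p = 0.0251) and rose from 0.25 to 0.5 d by 1.17 (adjusted p = 0.00854), opposite to the sign of the chosen probe set in both comparisons. The third, 1425922_a_at, had 0.20 at 0.25 d (adjusted p = 0.0660) and no call. The direction of Mycn is thus not settled by these arrays.

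Max, the obligate partner of MYC and of the MXD proteins, rose early and briefly. Its probe set read 6.86, 6.68 and 6.98 at 0 d, 7.54, 7.28 and 7.16 at 0.25 d and 7.29, 7.38 and 7.71 at 0.5 d. No liver of 0.25, 0.5 or 0.75 d was as low as the highest of 0 d, by a small margin at 0.75 d. At 0.75 d the values were 7.21, 7.03 and 7.06, and at 1 d 7.17, 6.73 and 6.79. From 1.5 d to 14 d all livers lay between 6.66 and 7.01, around the 0 d values. Max was 0.49 ± 0.11 (SE, n = 3 per time) higher at 0.25 d, a fold of 1.40 (limma, adjusted p = 0.00117), and 0.62 higher at 0.5 d, a fold of 1.54 (adjusted p = 0.000120). The 0.26 of 0.75 d did not pass (adjusted p = 0.108), nor did the step down from 0.5 to 0.75 d of -0.36 (adjusted p = 0.0821), a step at which 2.29% of genes were called (1.23% higher and 1.06% lower). Both calls held whichever single array was left out, at 0.38 to 0.57 and 0.50 to 0.71. Within times Max ran against the mean of the hepatocyte markers (r = -0.79 over 33 arrays) and against each array's correlation with its own time (r = -0.67). The hepatocyte marker mean was 14.20 to 14.21 at 0 d, 14.07 to 14.21 at 0.25 d and 14.02 to 14.15 at 0.5 d. Their part in the Max values was not tested. Of the array with the lowest such correlation, 0.5 d replicate 3 (0.971), Max was the highest of all, and without it the 0.5 d difference was 0.50.

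Mlx, the MAX-like partner of the MLXIP and MLXIPL sugar-response factors, was high for longer. It read 8.11, 7.88 and 7.71 at 0 d, 8.11, 8.32 and 8.28 at 0.25 d and 8.13, 8.49 and 8.27 at 0.5 d. At 0.75 d it was 8.48, 8.27 and 8.55, at 1 d 8.28, 8.51 and 8.54 and at 1.5 d 8.20, 8.38 and 8.46. From 0.5 to 1.5 d every liver was above every 0 d liver, by a small margin at 0.5 d. At 2 d it was 7.99, 8.28 and 7.98, and later values of 7.54 to 8.20 overlapped with 0 d. Mlx was higher by 0.39 at 0.5 d (limma, adjusted p = 0.0316), 0.53 at 0.75 d (0.00770), 0.54 at 1 d (0.00910) and 0.45 at 1.5 d (0.0269), with a standard error of 0.14 throughout. The largest is a fold of 1.45. The 0.33 of 0.25 d did not pass (0.0574). The 4 calls depend on 0 d replicate 3, the lowest 0 d liver: without it the differences were 0.30, 0.43, 0.44 and 0.35, with adjusted p of 0.158, 0.0516, 0.0513 and 0.125. The 0.5 d call was also lost without 0 d replicate 2 or without replicate 2 or 3 of its own time, and the 1.5 d call without 0 d replicate 2 or replicate 2 or 3 of 1.5 d. The second probe set, 1418437_a_at, was higher at 0.25 d (0.42), 0.5 d (0.39), 0.75 d (0.42) and 1.5 d (0.26), and its 0.21 at 1 d did not pass. Within times Mlx ran against the actin 3' to 5' difference (r = -0.67) and that of Gapdh (r = -0.60). The actin difference was 0.74 to 0.94 at 0 d and 0.49 to 0.56 at 1 d, and its part in the Mlx values was not tested.

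**Figure D3:**
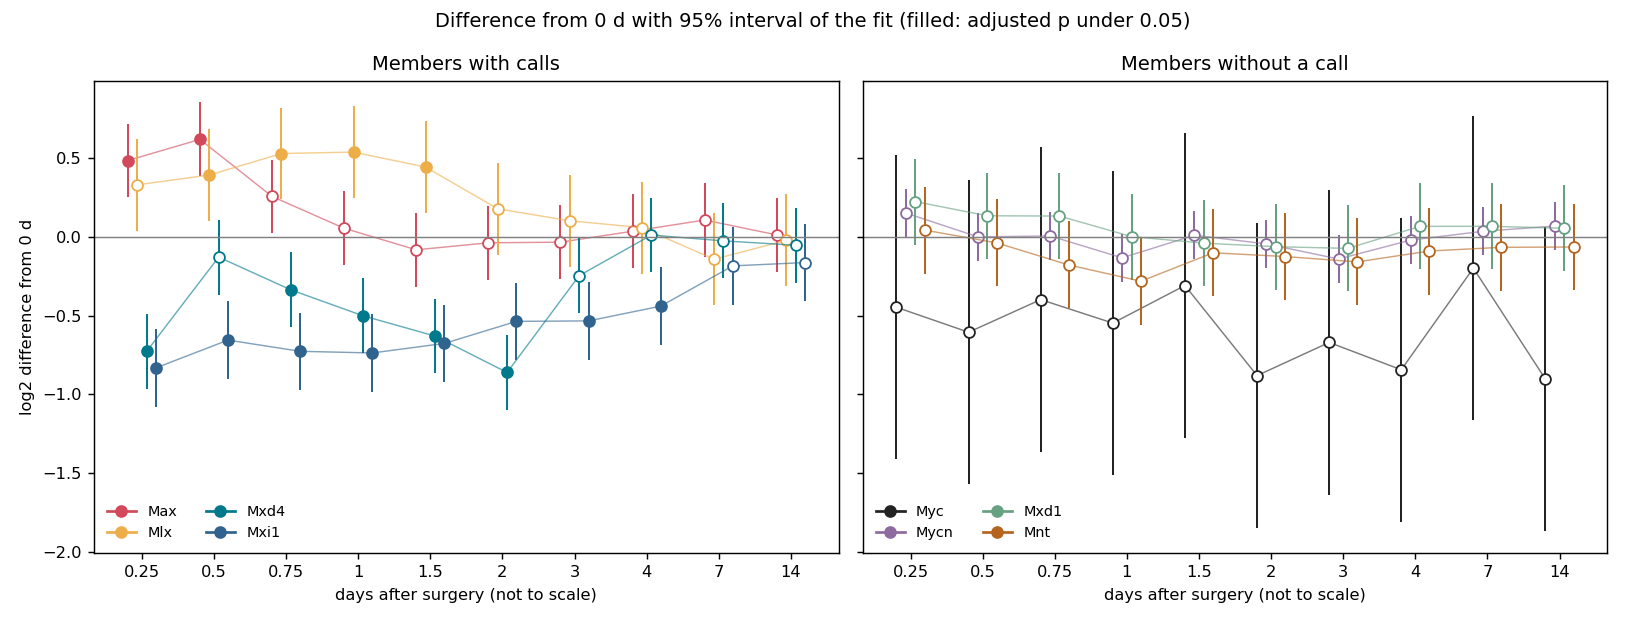
Log2 difference of each member from 0 d (vertical axis) by days after surgery (horizontal axis, not to scale), with the 95% interval of the fit; filled points passed an adjusted p of 0.05. Max is above 0 at 0.25 and 0.5 d, Mlx from 0.5 to 1.5 d, Mxd4 reaches -0.86 at 2 d and Mxi1 is below 0 to 4 d, while the Myc intervals all span 0.

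Mxi1, a MAX partner that recruits SIN3 and opposes MYC, fell at the first time and came back slowly. At 0 d it read 8.46, 8.52 and 8.32, and at 0.25 d 7.16, 7.79 and 7.87. It was 7.71, 7.88 and 7.76 at 0.5 d, 7.65, 7.78 and 7.70 at 0.75 d and 7.59, 7.80 and 7.71 at 1 d. No liver up to 4 d reached the lowest 0 d liver. At 1.5 d the values were 7.78, 7.71 and 7.79, at 2 d 7.80, 8.10 and 7.80 and at 3 d 7.96, 7.88 and 7.88. At 4 d they were 7.93, 8.01 and 8.05, at 7 d 8.31, 8.30 and 8.14 and at 14 d 8.18, 8.34 and 8.30. The 7 d livers sat just under the lowest 0 d liver, and those of 14 d overlapped with 0 d.

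The difference of Mxi1 from 0 d was -0.83 ± 0.12 at 0.25 d, a fold of 0.562 (limma, adjusted p = 5.01e-06). It was -0.65 at 0.5 d, -0.73 at 0.75 d, -0.74 at 1 d and -0.68 at 1.5 d, all with adjusted p of 0.000284 or less. It was -0.54 at 2 d (0.00176) and -0.53 at 3 d (0.00217). The -0.44 of 4 d stood near the threshold (0.0441) and was lost without 0 d replicate 1 or 2, without any 1 of the 4 d livers and without some arrays of other times, with an adjusted p up to 0.152. The -0.18 of 7 d and -0.16 of 14 d did not pass. No step after the first was called. The second probe set, 1425732_a_at, was lower than 0 d at all but 14 d but passed only at 0.25 d (-0.40) and 2 d (-0.38). Within times Mxi1 ran with the mean of the hepatocyte markers (r = 0.62) and against the 18S signal (r = -0.53). The array with the lowest Mxi1, 0.25 d replicate 1, had the highest 18S signal, 13.04, and without it the 0.25 d difference was -0.61. The erythroid marker Alas2 was called lower from 0.25 to 3 d, times at which Mxi1 was called lower too, and at 4 d read -0.32 without a call. Within times the r of Mxi1 with the mean of the 3 measured erythroid markers was -0.04. The part of these measures in the fall of Mxi1 was not tested.

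Mxd4, the MAD4 antagonist found in resting and differentiating cells, was called lower at 0.25 d and from 0.75 to 2 d. It read 7.96, 7.85 and 7.63 at 0 d, 7.11, 7.32 and 6.84 at 0.25 d and 7.42, 7.64 and 8.0 at 0.5 d. The 0.25 d livers were below all 0 d livers, and those of 0.5 d overlapped with 0 d. Then it read 7.54, 7.51 and 7.39 at 0.75 d, 7.42, 7.29 and 7.24 at 1 d and 7.06, 7.25 and 7.26 at 1.5 d. The lowest time was 2 d, with 6.93, 6.89 and 7.05. At 3 d it was 7.49, 7.60 and 7.63, and from 4 to 14 d all livers lay between 7.71 and 7.89, inside the 0 d range.

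Against 0 d, Mxd4 was lower by -0.73 ± 0.12 at 0.25 d (limma, adjusted p = 1.79e-05), while the -0.13 of 0.5 d did not pass (0.425). With 1 array left out the 0.5 d difference ranged from -0.28 to 0.01, lowest without 0.5 d replicate 3. That array had the lowest correlation with its own time (0.971). The difference of Mxd4 was -0.33 at 0.75 d (0.0373), -0.50 at 1 d (0.00334), -0.63 at 1.5 d (0.000403) and -0.86 at 2 d, a fold of 0.551 (5.19e-06). The -0.24 of 3 d did not pass (0.138), and the difference at 4 d was 0.01. The step between 0.25 and 0.5 d was a rise of 0.60 (adjusted p = 0.000574), in a comparison where 21.2% of genes were called. The step between 2 and 3 d was a rise of 0.62 (adjusted p = 0.0206), where 0.418% of genes were called. The latter was lost without 2 d replicate 1 or any of the 3 d livers, with an adjusted p of up to 0.164, and the former was lost with the fit on those arrays alone (0.160). On the other probe sets the 2 to 3 d step was called on none, with 0.49 on 1422574_at (adjusted p = 0.0757), 0.48 on 1434379_at (0.122) and 0.15 on 1422575_at (0.758). The 0.25 to 0.5 d step was not called on 1422574_at (0.33, adjusted p = 0.0632) or 1422575_at (0.29, 0.178). The 0.75 d call was lost without any 1 of the 3 livers of that time and without 0 d replicate 1 or 2. Probe set 1434379_at was called lower at each time from 0.25 to 3 d, with -1.15 at 2 d, and its 0.5 d value of -0.49 passed too. Probe set 1422574_at was lower at 0.25, 1, 1.5 and 2 d, and the dim 1422575_at, with values around 5, had no call. Within times the r of Mxd4 was -0.53 with the hepatocyte markers and -0.52 with the array median, and their part was not tested.

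**Figure D4:**
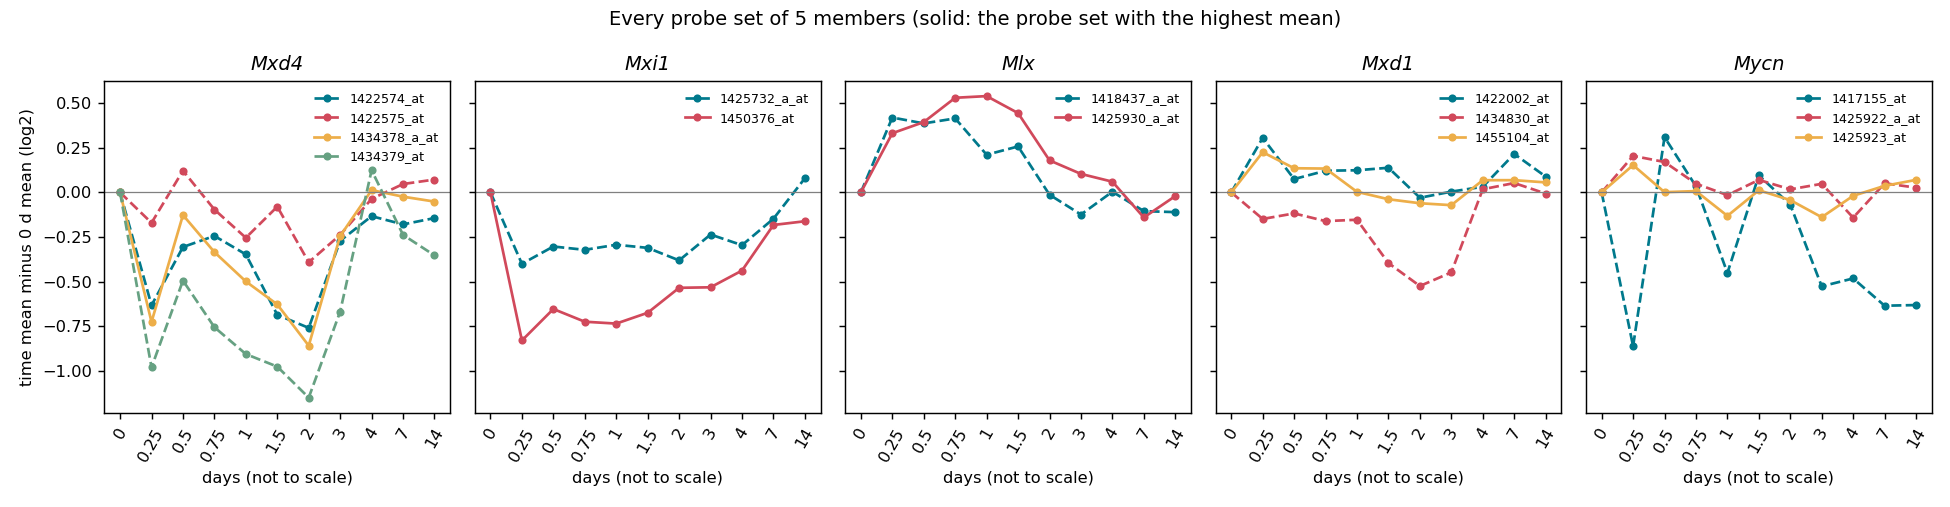
Mean of 3 livers minus the 0 d mean (vertical axes, log2) for every probe set of Mxd4, Mxi1, Mlx, Mxd1 and Mycn by days after surgery (horizontal axes, not to scale); solid lines are the probe sets that stand for the gene. The 3 brighter Mxd4 probe sets and both of Mxi1 are below 0 at 0.25 and 2 d. At 0.5 d Mxd4 1434379_at reads -0.49, lower than the chosen probe set. Mycn 1417155_at reads -0.86 at 0.25 d, while the other 2 probe sets of Mycn read 0.15 and 0.20.

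Mxd1, the founding MAX dimerization repressor, and Mnt, the broadly expressed repressor of the family, had no call on their chosen probe sets. Mxd1 read 5.94, 6.20 and 5.70 at 0 d and 6.30, 6.07 and 6.14 at 0.25 d, overlapping, with a difference of 0.23 ± 0.13 (limma, adjusted p = 0.166). Its full range over the arrays was 5.59 to 6.30. Its probe set 1422002_at was higher at 0.25 d by 0.31 (0.00735), and 1434830_at was lower by -0.53 at 2 d (0.0109) and -0.45 at 3 d (0.0303). Mnt read 7.89, 7.92 and 7.68 at 0 d and 7.50, 7.63 and 7.51 at 1 d, without overlap, as 36.3% of genes did in that comparison. That largest difference, -0.28 ± 0.13 (SE), did not pass after adjustment (adjusted p = 0.160). The Mnt livers of 7 d spread from 7.37 to 8.09.

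The members were compared with each other only as shapes over the 11 time means. Mxi1 and Mlx ran against each other (r = -0.86), while Mxd1 and Max (0.84), Mycn and Mnt (0.79), Mycn and Mxd1 (0.72) and Mxd4 and Mxi1 (0.68) ran together. Among livers of the same time, over 33 arrays, the r of these pairs was 0.18 for Mxi1 and Mlx, 0.25 for Mxd1 and Max, -0.05 for Mycn and Mnt, 0.52 for Mycn and Mxd1 and -0.08 for Mxd4 and Mxi1. No other member's r with Myc was above 0.24. Myc was also set against each other member at each time, as the difference of the 2 log2 values within a liver against 0 d. Of the 70 comparisons none reached the smallest two-sided p that an exact permutation test allows with 3 against 3 livers (0.10), and the lowest p was 0.20. This test with 3 against 3 livers cannot reach 0.05, so it does not show that Myc and the others changed alike.

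The genes whose 11 time means were most like a member's are named with Pearson's r, which describes shared shape only. For Myc they were Efl1, a GTPase of ribosome maturation (0.94), Fjx1 (0.82), Tomm22, a mitochondrial import receptor (0.78), Ggps1, of isoprenoid synthesis (0.77), and Kcna6, a potassium channel (0.75). For Max they were Glyr1 and Ibtk (both 0.97), and for Mlx Ube2f (0.98), which conjugates NEDD8, and Psmb5 (0.95), a proteasome subunit. For Mxi1 they were Eif4b (0.98), a translation initiation factor, and Cnmd (0.97). For Mxd4 they were Rbbp9 and Mepce (both 0.93), for Mxd1 Smad7 (0.95), an inhibitor of TGF-beta signalling, and Otog (0.94), for Mycn Asic2 and H1f10 (both 0.95) and for Mnt Akap11 (0.93) and Lin7c (0.92).

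The 5 other genes of the network, Mycl, Mga, Mxd3, Mlxip and Mlxipl, were called more often lower than higher. Mlxipl, the carbohydrate response factor ChREBP and an MLX partner, was lower at 0.25 d (log2 difference -1.76 ± 0.19, limma, adjusted p = 1.09e-07). It was still called at 2 d (-0.73) and not at 3 d (-0.47, adjusted p = 0.0817). Its relative Mlxip (MondoA) was lower at 0.75 d (-0.45), 1 d (-0.54), 1.5 d (-0.60) and 3 d (-0.48). Mycl, the third MYC paralog, was lower at 0.75 d (-0.50), 1 d (-0.66, adjusted p = 0.00439) and 1.5 d (-0.46), and Mga, a MAX partner of repressive complexes, at 1.5 d (-0.34). Mxd3, the MXD member linked with S phase, was the exception, higher at 2 d (0.44, adjusted p = 0.0335) and 3 d (0.48, 0.0243). Among the 5 genes, 3 were called lower at 1 d, when 9.55% of all genes were.

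The list of genes known to be activated by MYC was chosen with earlier results of these data in view. Its genes moved while Myc itself had no call at the times sampled. Of the 35 tested, 17 were higher and 5 lower at 0.5 d, beside the 15.8% and 19.4% of all genes, and the median difference was 0.32 beside -0.00 over all genes. At 0.25 d 11 were higher and 8 lower, beside 17.2% and 28.8% of all genes. At 2 d 14 were higher and 0 lower, beside 11% and 11.6%. No gene of the list was called at 7 or 14 d. Of the 35 genes, 20 were called higher at some time and never lower, 7 lower and never higher, 3 both, and 5 never. The share of all genes called at some time was not computed, so these counts have no background. Early ones were Cad, of pyrimidine synthesis (1.64 ± 0.13 at 0.5 d, limma, adjusted p = 4.74e-10), and Nop58, of small nucleolar ribonucleoproteins (1.56 at 0.25 d). Srm, spermidine synthase, was 1.46 higher at 0.5 d, Odc1, the first enzyme of polyamine synthesis, 1.33 at 0.75 d, and Ldha, lactate dehydrogenase, 1.26 at 0.75 d. Later ones were the cell cycle genes E2f2 (1.67 at 2 d), Cdc25a (1.25) and E2f1 (1.03). Against the name of the list, Cks2, a cyclin-dependent kinase subunit, was lower at 0.25 d (-1.71), and Shmt1, a folate enzyme, at 0.25 d (-1.27) and 0.5 d (-1.54). The E-box was found in windows of 9 of the 32 listed genes with a window (28.1%), beside 8.09% of all genes. Genes known to be activated by MYC may be known through this motif, so the share is a description and not a test. Shares of the other lists follow. The E-box was found in 0 of 7 genes of the list repressed by MYC, 1 of 15 turnover genes (6.67%), 1 of 12 SIN3 genes (8.33%), 2 of 13 cofactors (15.4%) and 1 of the 5 other network genes (20%).

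Of the 9 tested genes listed as repressed by MYC, 4 were lower and 2 higher at 0.25 d, where 28.8% of all genes were lower and 17.2% higher. At 0.5 d it was 4 lower and 1 higher, beside 19.4% and 15.8%. Cdkn1a, the cell cycle inhibitor p21, was far higher at 0.25 d (4.25 ± 0.46, limma, adjusted p = 9.13e-08) and at 0.5 d (2.91), 2 d (1.86) and 3 d (1.57). Gas1, a growth arrest gene, was lower at 0.25 d (-2.62), and Cebpa, the hepatocyte factor that restrains growth, at 0.25 d (-1.58) and through 2 d (-1.10). Gadd45a was lower at 0.5 d (-0.999) and Ndrg2 at 2 d (-0.49). In this small list, counts at any time are of 4 genes or fewer in a direction.

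**Figure D5:**
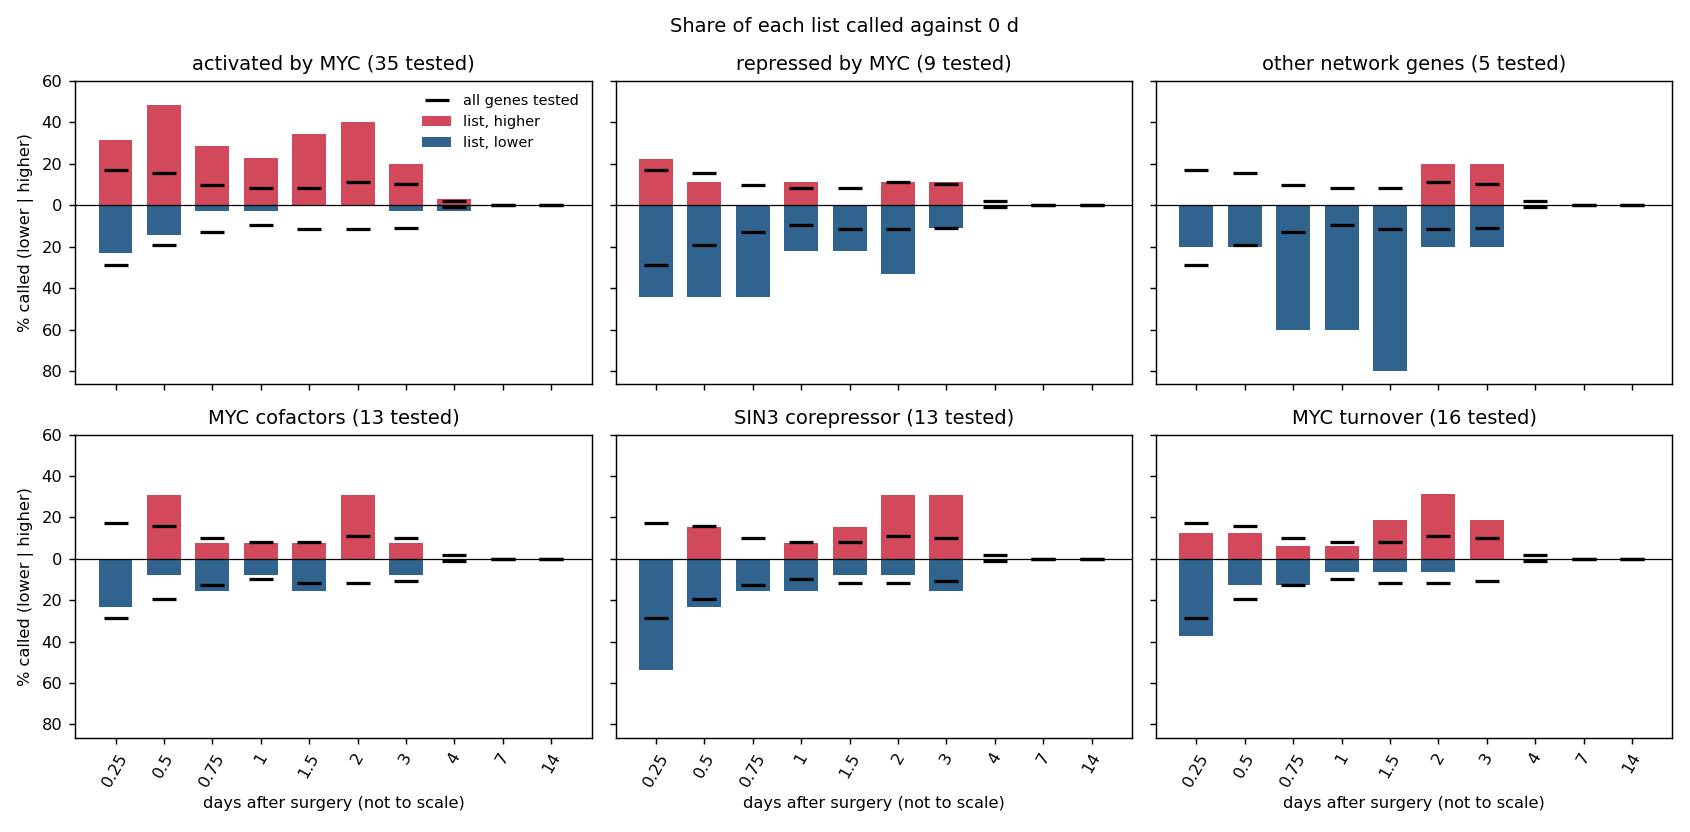
Share of each gene list called higher (upward bars) or lower (downward bars) than 0 d at an adjusted p under 0.05, in percent of the genes tested, by days after surgery (not to scale); black marks give the share of all genes. The MYC-activated genes are above the marks on the higher side at every time to 3 d, and the SIN3 genes have 7 of 13 lower at 0.25 d.

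Genes of the SIN3 corepressor complex, through which the MXD proteins and MNT repress, were called lower at 0.25 d and, mostly other genes, higher at 2 d. Over the course 8 of the 13 tested were called lower and never higher, 3 higher and never lower, 1 both and 1 never. For these counts too no share of all genes was computed. At 0.25 d 7 were lower and 0 higher, when 28.8% of all genes were lower and 17.2% higher, with a median of -0.40 beside -0.03 over all genes. Ing2, a reader of a histone mark, had -1.48 ± 0.16 (limma, adjusted p = 8.38e-08), the histone chaperone Rbbp4 -1.08, the subunit Suds3 -0.71 and the scaffold Sin3a -0.70. At 2 d 4 were higher and 1 lower, beside 11% and 11.6% of all genes, with Sap30 at 0.71, Rbbp7 at 0.62, and the deacetylases Hdac2 at 0.53 and Hdac1 at 0.37. At 3 d it was 4 higher and 2 lower, beside 10.2% and 10.9%. Of the 13 MYC cofactors tested, 3 were lower at 0.25 d, a smaller share than the 28.8% of all genes, the scaffold Trrap (-1.15 ± 0.14, adjusted p = 4.67e-07), the acetyltransferase Kat2a (-0.61) and Zbtb17 (-0.23), and 4 were higher at 2 d, beside 11% of all genes. These were Actl6a (0.59), Smarcb1 (0.55), Ruvbl2 (0.31) and Ruvbl1 (0.27).

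Of the 16 tested genes that control the life of the MYC protein, 6 were lower and 2 higher at 0.25 d, near the 28.8% and 17.2% of all genes. Among those lower were the phosphatase subunit Ppp2r5a (-0.93 ± 0.18, limma, adjusted p = 0.000155), the ubiquitin ligase subunit Skp2 (-0.81), the deubiquitinase Usp28 (-0.60) and Btrc (-0.49). At 2 d 5 were higher and 1 lower, beside 11% and 11.6% of all genes, led by the mitotic kinases Aurka (3.02 ± 0.41, adjusted p = 5.65e-06) and Plk1 (2.34), with Skp2 now at 1.78 and Usp37 at 0.68. Aurka and Plk1 belong to mitosis whatever their part in MYC turnover. Stub1, a chaperone-linked ligase, was higher at 0.75 d (0.43) and 1 d (0.57).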

How the data were processed

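Each of the 33 arrays was hybridized with biotin-labelled liver RNA (5 µg of total RNA, per the labels' protocols). The deposited values are log2 intensities that the authors obtained with RMA, as the submitters' processing notes name it, and its version is not given in the sources used here. RMA makes array distributions alike, so a shift shared by most genes is removed. The platform annotation named 34945 of 45101 probe sets by 1 symbol, 932 by several and 9160 by none, and 64 controls were left out. Of the 34945, 34741 matched the RefSeq table by Entrez number. A gene was tested if 3 or more arrays reached a log2 value of 5, which left 13642 of 18193.

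The 11 time means were estimated in 1 model of the 33 arrays fitted by limma 3.58.1 under R 4.3.3 and moderated by eBayes, with 22 degrees of freedom left. P-values were two-sided and adjusted by Benjamini-Hochberg over all genes within each comparison, with a threshold of 0.05. Comparisons were 10 later times against 0 d, 10 steps between neighbouring times and the F-test. The fit was tested on simulated data. P-values set each difference against 1 moderated spread per gene, pooled from the livers within each of the 11 times. The members and gene lists were chosen with earlier results of these data known. Named were all members, up to 4 called genes with the largest differences per list and time, every other network gene, and genes of most similar course; text examples are drawn from these. The number of arrays limits precision, and no count depth exists.

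On average, same-numbered livers of different times did not deviate together (33 of 165 pairs correlated above 0.1, mean 0.02). The pairs ranged from -0.35 to 0.39, and a mean over all times cannot exclude pairing at some of them. Alternatives were other filters, probe set rules, scalings, variance settings, subsets of arrays and leaving out each array.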

Additional observations from a re-analysis of the deposited data

Results flagged for a closer look

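The step of Mxd4 from 0.25 to 0.5 d, a rise of 0.60, and that from 2 to 3 d, a rise of 0.62, stand out because the difference between neighbouring times was itself past the threshold, limma's adjusted p being 0.000574 and 0.0206. The 2 to 3 d step was not called on any of the other 3 Mxd4 probe sets (adjusted p of 0.0757 to 0.758), nor without 2 d replicate 1 or any 1 of the 3 d livers. The 0.25 to 0.5 d step was not called on 2 of those probe sets (0.0632 and 0.178), nor on the compared arrays alone (0.160). Several probe sets that do not stand for their gene gave calls where the chosen probe set had none. Mlx probe set 1418437_a_at was 0.42 higher at 0.25 d (limma, adjusted p = 0.000489), where the chosen probe set had 0.33 and did not pass. Mxd1 probe set 1422002_at was 0.31 higher at 0.25 d (adjusted p = 0.00735), where the chosen probe set had 0.23. Others were Mxd4 1434379_at at 0.5 d (-0.49), 3 d (-0.67) and the step from 3 to 4 d (0.79), Mxd1 1434830_at at 2 d (-0.53) and 3 d (-0.45), and Mycn 1417155_at at 0.25 d (-0.86) and the step from 0.25 to 0.5 d (1.17). With 3 livers per time, single outlying livers were not tested.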

How the results depend on the processing

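Limits: 3 livers per time, a shared 0 d group, a probe set near the array floor for some members, and the runs of sample records bound what can be said. Over the other settings, 1524 member results kept direction and side of the threshold, 8 were weaker and 12 stronger, 52 uncalled values moved and 1 was reversed. With 1 array left out, 4867 were kept, 34 were weaker, 8 stronger and 107 moved. With another probe set, 108 were kept, 18 were weaker, 7 stronger, 55 moved and 2 were reversed. The reversed results were all of Mycn: the 0.25 d difference was -0.86 and the step from 0.25 to 0.5 d 1.17 with probe set 1417155_at, and that step was 0.33 with the mean of the gene's probe sets. The cause was not tested.

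With 1 fit per comparison on only the arrays compared, which leaves fewer samples, genes called were 3702 at 0.25 d, 2443 at 0.5 d, 1663 at 2 d, 160 at 4 d and 0 at 7 and 14 d, against 6265, 4808, 3074, 390, 25 and 2. With a joint adjustment over the 10 comparisons they were 954 at 4 d, 567 at 7 d and 537 at 14 d. At 14 d the count was 0 without a filter on low values, 0 with a filter at 7, 0 with only the arrays of the same run of records, 4 with quantile normalization, 7 with a common median and 12 with array weights. At 7 d it was 15 with quantile normalization, 12 with array weights and 9 with only the same run. Calls of members over the steps were 8 with the mean of probe sets and 8 with quantile normalization, against 5. The cause was not tested.

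With 1 array left out, genes called ranged from 4885 to 6518 at 0.25 d, 3661 to 5020 at 0.5 d, 2249 to 3414 at 0.75 d, 1581 to 2781 at 1 d, 1889 to 3141 at 1.5 d, 2162 to 3458 at 2 d, 1893 to 3248 at 3 d, 87 to 524 at 4 d, 0 to 57 at 7 d and 0 to 23 at 14 d. Genes varying ranged from 9047 to 9502, members varying from 4 to 5, member calls against 0 d from 15 to 20 (6 to 7 at 1, 2, 3, 4, 7 and 14 d), and member calls over steps from 4 to 7. With the replicate number as a block, member calls against 0 d were 19 and over steps 5, and no member's call changed. The numbers are not stated to pair the livers, so this is only a check.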
